A study of Mus musculus with 9 samples.

Results

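The gasdermin family was followed through 3 groups of laser-captured mouse prostate lesions, as 6 named genes: Gsdma, Gsdmc, Gsdmc2, Gsdmc3, Gsdmc4 and Gsdmd. The family was chosen by the very large tumour difference of Gsdmc2 on these same arrays, so the comparison of tumours with high-grade lesions is described here and not tested for these genes. Of the 6 genes, 5 had a probe set annotated to that symbol alone, out of 22180 such symbols on the array, and the brightest one by mean log2 intensity over 9 arrays was used. Gsdmc4 had none: its only probe set is annotated to Gsdmc4 and Gsdmc2 together and is described separately. Only Gsdmc2, Gsdmc3 and Gsdmd lay above the signal filter (mean log2 intensity of 3.25) and were among the 16635 genes fitted; Gsdmc2 and Gsdmc3 did so through the high-grade lesions, and the tumour mean of Gsdmc2 alone would have lain below it.

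The mice were 12-month-old males of mixed strain. All carried PbCre, a Cre driven by the probasin promoter of prostate epithelium, together with a further engineered allele shared by every animal, controls included. Control mice had no T-3Mb-Erg allele, and the others were T-3Mb-Erg/+, heterozygous for T-3Mb-Erg; the series concerns reduced dosage of the genes between TMPRSS2 and ERG. There were 3 arrays each of control high-grade prostatic intraepithelial neoplasia (HG-PIN, dysplastic cells within the gland), T-3Mb-Erg HG-PIN and T-3Mb-Erg poorly differentiated adenocarcinoma, labelled solid tumour. Tumour and HG-PIN captures of T-3Mb-Erg mice were paired by animal (3 mice), so the 9 arrays stand for 6 mice; lesions of control mice are not normal prostate, and the number of arrays limits the precision.

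Gasdermins are pore-forming proteins. In most of them an inhibitory carboxy-terminal part holds back an amino-terminal part, and once a caspase, granzyme or neutrophil protease cuts between them, the freed part assembles into pores in the cell membrane, which lets out interleukin-1 family cytokines and can end in lytic death (pyroptosis). Gsdmd is the substrate of inflammatory caspases and is widely expressed, Gsdma is a gene of skin and upper digestive epithelium, and the mouse Gsdmc genes form a cluster of close copies expressed in epithelia such as that of the gut, where cytokines of type 2 immunity raise them. Gsdmc to Gsdmc4 lie next to each other on chromosome 15, with the transcribed pseudogenes Gsdmcl1, Gsdmcl2 and Gsdmcl-ps between and after them; Gsdmd lies elsewhere on chromosome 15 and Gsdma on chromosome 11.

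Of the 6 genes, a promoter sequence was at hand for Gsdmc3, which with Gsdmc2 carries the main pattern below. The 250 bases before its start were taken from RefSeq (build GRCm38.p6, chr15:63878559-63878808, minus strand), and the capitals mark the only match to 6 motifs searched on both strands, a TATA box spelled TATANAA.
Gsdmc3: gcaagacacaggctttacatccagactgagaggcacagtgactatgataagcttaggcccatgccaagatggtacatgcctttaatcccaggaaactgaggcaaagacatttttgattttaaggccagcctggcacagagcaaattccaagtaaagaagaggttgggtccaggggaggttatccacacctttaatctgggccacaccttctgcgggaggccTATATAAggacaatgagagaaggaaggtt
The match spans positions -29 to -23 from the start, and 10.4% of 32851 RefSeq windows of this length hold such letters on either strand. The other motifs were TTCNNNGAA (the spacing of most STAT sites, in 7.02% of windows), the STAT6 site, which has 1 more base in its middle (5.85%), TGANTCA (AP-1, 6.75%), GGAAGT (ETS factors, 19.7%) and AGAACA (an androgen receptor half-site, 16.1%). None of these letters occurs in this window, which says nothing about the factors themselves.

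The spread of signal differed between arrays: the 95th percentile of log2 intensity ran from 5.61 on control HG-PIN replicate 2 to 6.25 on tumour replicate 3. As a gauge of background, the 95th percentile of the mean log2 level of 1394 olfactory and vomeronasal receptor genes was 4.80, called the receptor level below; taken array by array it ran from 4.48 to 5.28 and was highest on control HG-PIN replicate 2. Luminal signal was compared between arrays with 15 tested luminal markers (keratins, claudins, E-cadherin and epithelial transcription factors). Their mean log2 level was 6.37 to 6.93 on the T-3Mb-Erg HG-PIN arrays and 4.45 to 4.60 on the tumour arrays. On control HG-PIN it was 6.61 and 6.50 for replicates 1 and 3 but 5.44 for replicate 2. Such levels cannot tell fewer epithelial cells from less RNA per epithelial cell.

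**Figure D1:**
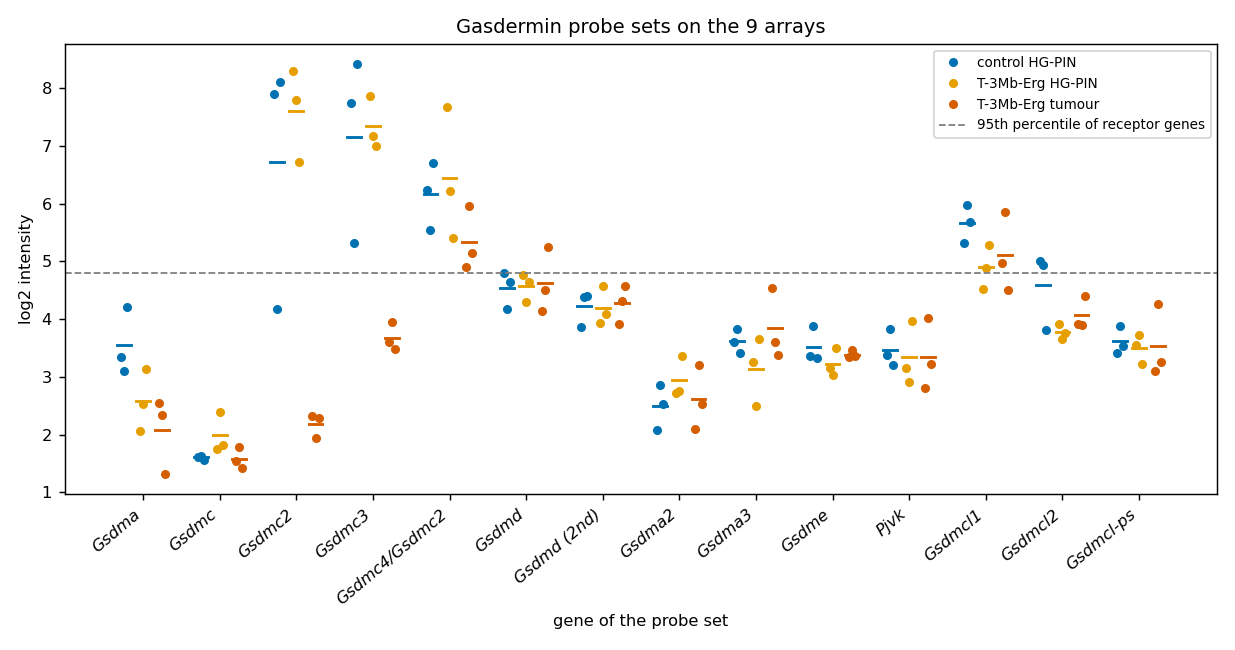
Log2 intensity of each gasdermin probe set on the 9 arrays (points: arrays; short bars: group means; dashed line: receptor level of 4.80). Gsdmc2 and Gsdmc3 are high in HG-PIN except on 1 control array and low in all tumours, while Gsdmd stays near the dashed line in every group.

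Gsdmc2 was high in HG-PIN of both genotypes, except on control HG-PIN replicate 2 (4.17), and at background in tumours. Its log2 intensity in T-3Mb-Erg HG-PIN was 8.29, 7.79 and 6.71 for replicates 1 to 3, and the paired tumours read 2.33, 1.95 and 2.29. The groups did not overlap, and all tumour values lay below the receptor level. Within the 3 mice the tumour was lower by 5.96, 5.84 and 4.43 log2 units, a mean difference of -5.41 (n = 3 each). The SE of this mean, 0.84, is from the fit over all 9 arrays, whose spread includes control HG-PIN. On the 6 arrays of the 2 groups the SE was 0.39. Only 1 of the 16635 genes had a larger negative difference in this comparison. Because tumours sat under the receptor level, the 42.4-fold size depends on values within background; the HG-PIN mean, 7.60 ± 0.80 (SD, n = 3), stood 2.79 log2 units above that level.

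Gsdmc3, the neighbouring copy, showed the same order. In T-3Mb-Erg HG-PIN its log2 intensity was 7.86, 7.17 and 7.00, while tumours read 3.61, 3.95 and 3.48, again without overlap and with all tumours below the receptor level. The within-mouse differences were -4.25, -3.21 and -3.52, with a mean of -3.66, the 15th most negative of all genes. Its SE was 0.64 in the fit over all 9 arrays and 0.34 on the 6 arrays of the 2 groups. Across the 9 arrays Gsdmc2 and Gsdmc3 had a Pearson's r of 0.99, and 0.95 over the 6 HG-PIN arrays alone; the points share their libraries and signal range, and Gsdmc copies are similar enough in sequence that their probes may read each other's transcripts, which was not tested.

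Both genes were lower than T-3Mb-Erg HG-PIN in all 3 tumours without overlap, as were 6.43% of all tested genes (1069 of 16635), and an adjusted p under 0.05 marked 0.283% of genes in either direction (0.216% lower, 0.0661% higher). Since this comparison led to the choice of the genes, nothing is read from that count.

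**Figure D2:**
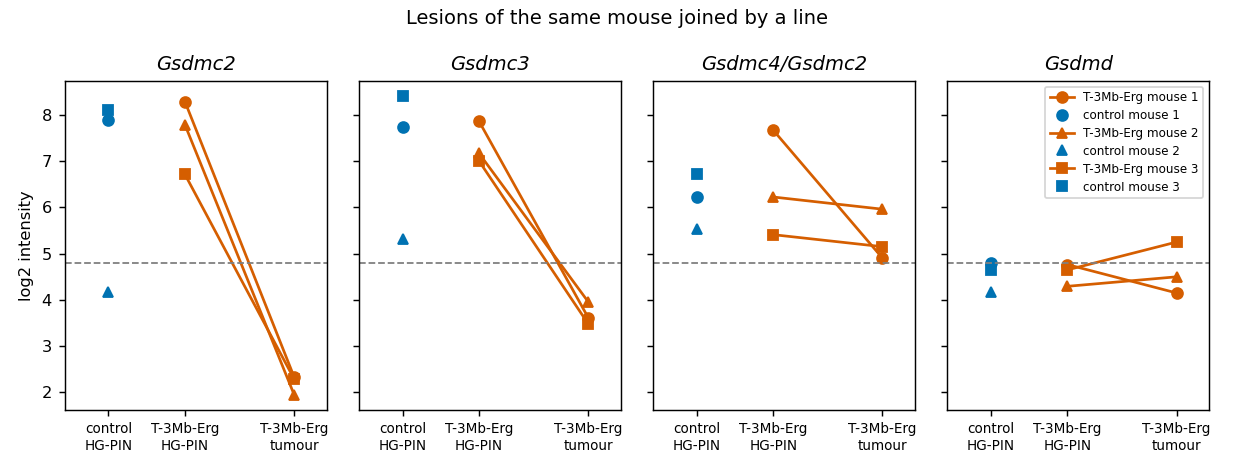
Log2 intensity of 4 gasdermin probe sets, with HG-PIN and tumour of the same T-3Mb-Erg mouse joined (symbols: mice; dashed line: receptor level of 4.80). All 3 lines drop by at least 3.21 for Gsdmc2 and Gsdmc3, while the probe set shared by Gsdmc4 and Gsdmc2 drops by 2.77 in mouse 1 and by 0.26 in the others, and the Gsdmd lines run both ways.

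The probe set annotated to both Gsdmc4 and Gsdmc2 did not follow in every mouse. Its log2 intensity was 7.67, 6.22 and 5.41 in T-3Mb-Erg HG-PIN, while tumours read 4.90, 5.96 and 5.15. The groups overlapped, and all 9 arrays lay above the receptor level of 4.80. Mouse 1 differed by -2.77, but mice 2 and 3 by only -0.26 each, in the same captures in which Gsdmc2 differed by -5.84 and -4.43. In control HG-PIN this probe set stood at 6.23, 5.54 and 6.71. The level of Gsdmc4 by itself is thus not given by these arrays.

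Gsdmd, the executioner of inflammasome-driven pyroptosis, had nearly equal means in the 3 groups. Log2 intensities were 4.80, 4.17 and 4.65 in control HG-PIN, 4.76, 4.29 and 4.65 in T-3Mb-Erg HG-PIN, while tumours read 4.15, 4.50 and 5.25. The groups overlapped, and the within-mouse differences of -0.61, 0.21 and 0.60 ran in both directions around a mean of 0.06 (SE 0.30 in the 9-array fit). A second, dimmer Gsdmd probe set gave 4.27 ± 0.33 in tumours and 4.19 ± 0.34 in their paired HG-PIN (SD, n = 3 each). The Gsdmd probe sets had a Pearson's r of 0.09 over the 9 arrays and -0.80 over the 6 HG-PIN arrays. All group means of both probe sets lay below the receptor level, so near-equal means do not show that expression was unchanged.

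Gsdmc and Gsdma were not above the signal filter and were not tested. Gsdmc, the first gene of the cluster, stood at 1.61 ± 0.04, 1.99 ± 0.35 and 1.58 ± 0.18 in control HG-PIN, T-3Mb-Erg HG-PIN and tumours (log2, SD, n = 3 each). Gsdma stood at 3.55 ± 0.58, 2.58 ± 0.54 and 2.07 ± 0.65 in the same order. The highest Gsdma value of any array, 4.20 on control HG-PIN replicate 3, was below the receptor level, so no order of the groups is read from either gene.

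The comparison that did not choose the genes set T-3Mb-Erg HG-PIN against control HG-PIN and asked whether lesions of one kind differ with the T-3Mb-Erg allele. It shares its T-3Mb-Erg HG-PIN arrays with the comparison that chose the genes, so its tests are not independent of that choice. None of the 3 tested gasdermins passed in limma's moderated test with Benjamini-Hochberg adjustment over all 16635 genes. None passed an unadjusted p under 0.05 either. Over all genes 0% were called in each direction, and 1.83% were higher and 2.27% lower at that unadjusted level. The log2 change of Gsdmc2 was 0.87 (SE 0.83, 95% interval -0.95 to 2.70, adjusted p = 0.998), that of Gsdmc3 was 0.18 (SE 0.64, interval -1.20 to 1.57) and that of Gsdmd was 0.03 (SE 0.30, interval -0.63 to 0.69). The intervals of the Gsdmc genes are wide, against a median half-width of 0.59 over all genes, and leave room for changes of 2.70 and 1.57 upward.

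A single control array stood apart from the other HG-PIN arrays. Gsdmc2 stood at 7.89 and 8.10 on control HG-PIN replicates 1 and 3 but at 4.17 on replicate 2, and Gsdmc3 at 7.74, 8.41 and 5.32. Replicates 1 and 3 therefore lay within or above the T-3Mb-Erg HG-PIN range, and replicate 2 lay between that range and the tumours. On replicate 2 the Gsdmc2 value was under the receptor level of that array, 5.28, and Gsdmc3, at 5.32, was just above it. Of all tested genes only 2 fell further below the lower of the other control arrays than Gsdmc2, which was 3.72 below, and Gsdmc3 ranked 41st at 2.42 below. Without replicate 2 the genotype change of Gsdmc2 turned to -0.40 and that of Gsdmc3 to -0.73, so neither direction is firm. The same array had the narrowest signal range of the 9 and a mean luminal marker level of 5.44, against 6.61 and 6.50 on the other controls. Its mean fibroblast marker level was 4.18, against 4.19 and 4.29. The part of range and marker content in the low gasdermin values was not tested.

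Tumours set against control HG-PIN shared their tumour arrays with the comparison above and are given as values; lesion and genotype cannot be told apart in it. The difference was -4.53 (SE 0.83) for Gsdmc2, -3.48 (SE 0.64) for Gsdmc3 and 0.10 (SE 0.30) for Gsdmd. Gsdmc2 and Gsdmc3 did not overlap between these groups, since even control replicate 2, at 4.17 and 5.32, lay above the highest tumours, at 2.33 and 3.95; 7.51% of all genes were lower in tumours without overlap in this comparison, and an adjusted p under 0.05 marked 0.18% in either direction. Without control replicate 2 the differences were -5.81 and -4.39.

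**Figure D3:**
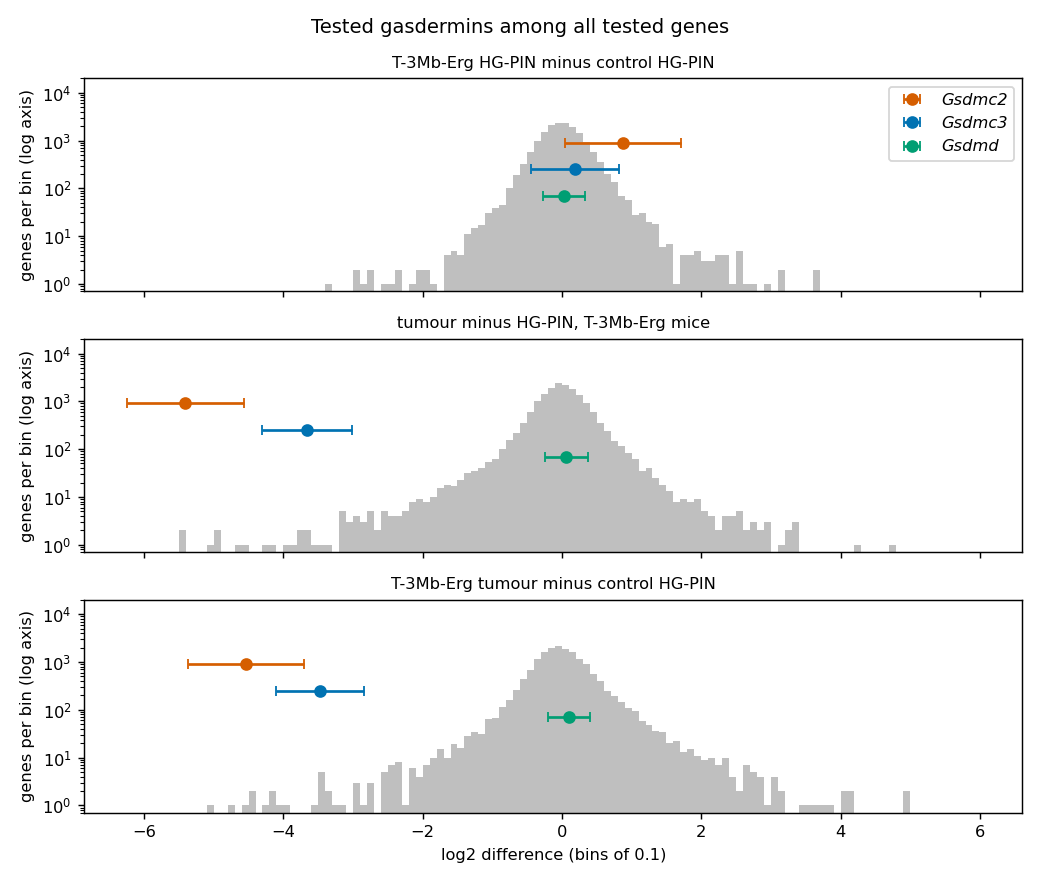
Log2 differences of the 3 tested gasdermins (points with SE bars; height has no meaning) over the distribution of all 16635 tested genes in 3 comparisons (histograms, log count axis). Gsdmc2 at -5.41 and Gsdmc3 at -3.66 lie in the far lower tail when tumours are compared with HG-PIN, and Gsdmd lies near 0 in all panels.

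The genes lying around the gasdermins did not pass the test. Gsdmcl1 and Gsdmcl2, pseudogenes on either side of Gsdmc3, had log2 changes of 0.21 (95% interval -0.59 to 1.01, adjusted p = 0.993) and 0.30 (interval -0.37 to 0.96, adjusted p = 0.963) between tumours and T-3Mb-Erg HG-PIN in limma, and Gsdmcl-ps 0.04 (interval -0.62 to 0.70). The T-3Mb-Erg HG-PIN means of Gsdmcl2 and Gsdmcl-ps, 3.77 and 3.50, were already below the receptor level, so these probe sets could not show a fall like that of Gsdmc3. Gsdmcl1 stood at 4.51, 4.89 and 5.28 in T-3Mb-Erg HG-PIN, while tumours read 4.97, 5.85 and 4.50, close to the receptor level. The nearest tested coding genes outside the cluster were Myc, the growth-driving transcription factor (0.17), A1bg (-0.10) and 4933412E24Rik (-0.39) on one side and Cyrib, a regulator of actin (-0.35), Asap1 (-0.23) and Adcy8, an adenylyl cyclase (-0.13), on the other. None of these 6 passed, nor did any of the 6 nearest tested genes of Gsdmd (Zc3h3, Mafa, Rhpn1, Mroh6, Naprt and Eef1d) or of Gsdma (Gsdma3, Lrrc3c, Ormdl3, Psmd3, Csf3 and Med24), in any of the 3 comparisons. Of the 6 coding genes beside the Gsdmc cluster, only Myc averaged above the receptor level (5.56 over 9 arrays). A1bg (3.28), 4933412E24Rik (4.19), Cyrib (4.61), Asap1 (4.19) and Adcy8 (4.10) averaged below it, so their small changes do not show unchanged expression. Changes of the genes near Gsdmd in tumours against T-3Mb-Erg HG-PIN ran from -0.49 for Mroh6 to 0.28 for Zc3h3, and only Csf3 of the 18 neighbours, at -0.51, was past an unadjusted p under 0.05 there, as were 3.98% of all genes downward and 3.67% upward. In the other comparisons no neighbour was, although the pseudogene Gsdmcl2 was lower in T-3Mb-Erg than in control HG-PIN at that level (-0.81, 95% interval -1.48 to -0.15, adjusted p = 0.998 in limma).

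**Figure D4:**
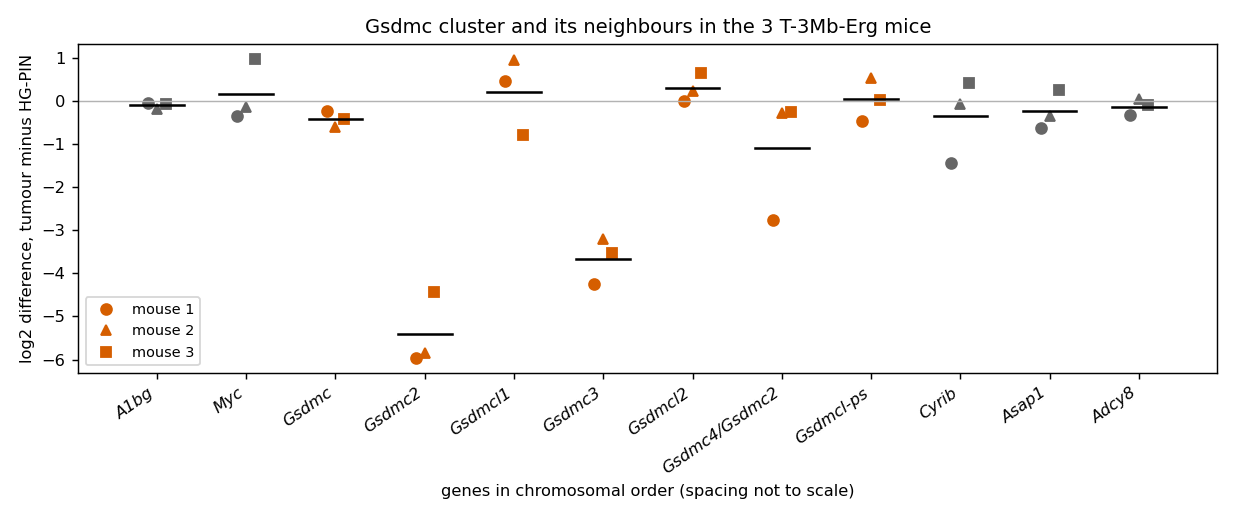
Log2 difference, tumour minus HG-PIN, in each of the 3 T-3Mb-Erg mice (symbols; bars: means) for the Gsdmc cluster and its neighbours in chromosomal order. Gsdmc2 and Gsdmc3 lie at -3.21 or lower in every mouse, while the pseudogenes between them and the outer genes scatter around 0. Of the outer genes only Myc averaged above the receptor level.

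The rest of the gasdermin family was at or below background. Gsdma2 was under the filter. Gsdma3, next to Gsdma, had a log2 change of 0.70 in tumours against T-3Mb-Erg HG-PIN (95% interval -0.05 to 1.45, adjusted p = 0.708 in limma). Gsdme, the caspase-3 substrate, changed by 0.16 (interval -0.33 to 0.66) and Pjvk, a gasdermin relative of the inner ear, by 0.01 (interval -0.76 to 0.78). All 3 were negative between the HG-PIN genotypes, with a median of -0.30 and no call, and none was past an unadjusted p under 0.05 in any comparison.

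Among the genes that act upstream and downstream of gasdermins, none was called in any comparison. Of 14 listed inflammasome sensors and adaptors, 10 were tested, and in tumours against T-3Mb-Erg HG-PIN 6 were negative with a median of -0.10, against -0.01 over all genes; 2 were past an unadjusted p under 0.05, both lower, a level reached by 3.98% of all genes downward and 3.67% upward. The 2 were Naip6 and Naip5, of a family of cytosolic sensors of bacterial proteins; Naip2, the other member tested, changed by -0.36 (adjusted p = 0.812 in limma). Naip6 had log2 levels of 7.41, 7.48 and 7.88 in T-3Mb-Erg HG-PIN, while tumours read 4.26, 4.03 and 5.55, without overlap (change -2.98, SE 0.63, adjusted p = 0.0902 in limma, which did not pass). Leaving out control HG-PIN replicate 2 gave Naip6 an adjusted p of 0.0164, and leaving out tumour replicate 3 gave 0.0287, both past the threshold. Leaving out any other single array gave 0.0753 to 0.52 in limma. With mice as fixed terms the adjusted p was 0.116, and 6 of 21 alternatives passed. On control HG-PIN Naip6 stood at 8.16, 5.52 and 7.55, low on the same replicate 2 as Gsdmc2. Naip5, a near copy whose probes may share transcripts with Naip6, changed by -1.25 (adjusted p = 0.423 in limma). It passed in only 1 of 21 alternatives, once replicate 3 of T-3Mb-Erg HG-PIN was left out (-1.77, adjusted p = 0.0262). Pycard, the adaptor that recruits caspase-1, stood at 5.24 ± 0.18 and 5.16 ± 0.19 in HG-PIN and tumours, and Nlrp3, a sensor of cell damage, at 3.79 ± 0.21 and 3.82 ± 0.38 (SD, n = 3 each). Both Nlrp3 means lay below the receptor level, and only 4 of the 10 tested genes of this list averaged above it.

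The proteases that cut gasdermins had 6 tested members, 4 positive, with a median of 0.18. Of the 6, 1 (Casp1) was higher at an unadjusted p under 0.05, as were 3.67% of all genes. None of the 6 had a mean above the receptor level. Casp1, the protease of Gsdmd, had log2 levels of 4.12, 3.44 and 3.29 in T-3Mb-Erg HG-PIN, while tumours read 5.16, 3.80 and 5.20. These values overlapped, and the change of 1.10 (SE 0.39) did not pass (adjusted p = 0.452 in limma). Against control HG-PIN the change of Casp1 was 1.69 (adjusted p = 0.112 in limma). It passed in 3 of 19 alternatives, among them the fit without tumour replicate 2. Casp4, which encodes mouse caspase-11, lay below the filter. Cytokines released through gasdermin pores and their antagonists had a median of -0.03 over 6 tested genes, with Il1b at 0.16 and Il1rn, the receptor antagonist, at -0.29. Only 1 of these 6, averaged over all arrays, exceeded the receptor level. The flat median therefore does not show that expression was unchanged. Genes of pore repair, membrane rupture and gasdermin regulation had a median of -0.17 over 11, with Chmp2a, a membrane-repair subunit, at -0.71 and Vps4a, which disassembles that machinery, at 0.47. No gene of either list was past an unadjusted p under 0.05 in tumours against T-3Mb-Erg HG-PIN.

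The type 2 cytokine axis and tuft cell list was chosen because type 2 cytokines raise Gsdmc genes in gut epithelium. In tumours against T-3Mb-Erg HG-PIN 11 of its 17 tested members were negative, with a median of -0.24 and no call. Only 6 of the 17 averaged above the receptor level. Of the 17, 3 were past an unadjusted p under 0.05, all lower, as were 3.98% of all genes. The smallest p values of the list were those of Agr2 and Clca1, genes of mucus-producing cells. Agr2, a disulfide isomerase, stood at 7.26, 6.32 and 6.09 in HG-PIN and 3.91, 4.07 and 4.15 in tumours (change -2.51, adjusted p = 0.309 in limma). On control HG-PIN Agr2 read 7.92, 4.35 and 7.62, again low on replicate 2. Stat6, the transcription factor of interleukin-4 and interleukin-13 signalling, stood at 5.10 ± 0.27 in HG-PIN and 5.24 ± 0.32 in tumours, and its receptor subunit gene Il4ra at 4.44 ± 0.19 and 4.77 ± 0.65 (SD, n = 3 each). Both Il4ra means lay below the receptor level.

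Likeness to the 9-array pattern of Gsdmc2 was sought among 4180 genes with a mean above the receptor level. Predicted-model, clone and small RNA symbols had been left out of these. The most alike were Pigr, which carries antibodies across epithelia, Gsdmc3, Tmprss4, a membrane serine protease, Lrg1 and Cdh1 (E-cadherin). Next came Ehf, an epithelial ETS factor, Myo5c, an epithelial myosin, Atp1b1, a sodium pump subunit, Tspan1 and Plekhs1. Pearson's r ran from 0.97 to 0.99 over the 9 arrays and from 0.87 to 0.98 over the 6 HG-PIN arrays; the arrays share the group difference and the low control replicate 2, so these values are descriptive. Pigr, the most alike, read 9.48, 6.64 and 8.79 in control HG-PIN, 9.06, 8.67 and 8.57 in T-3Mb-Erg HG-PIN, while tumours read 4.60, 4.86 and 5.02.

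Luminal markers of epithelium were lower in tumours, like Gsdmc2 and Gsdmc3. All 15 tested luminal markers were lower in tumours than in T-3Mb-Erg HG-PIN, with a median of -2.15, against -0.01 over all genes. In limma 8 of the 15 fell at an adjusted p under 0.05, as did 0.216% of all genes. Among the 8 were the tight junction gene Cldn4 (-3.76, adjusted p = 0.00436) and the epithelial factor Elf3 (-2.91, adjusted p = 0.0154). Krt8 (-2.88, adjusted p = 0.0154) and the lineage factor Foxa1 (-2.74, adjusted p = 0.0306) were also among them. The 15 differences ranged from -3.76 to -0.72. With mice as fixed terms (a replicate block) 1 of the 8 kept its call, Cldn4 (adjusted p = 0.0215); Elf3 and Krt8 stood at 0.0505 and Foxa1 at 0.0753. The count of 8 went to 0 when replicate 1 of the tumours or of T-3Mb-Erg HG-PIN was left out, to 1 when replicate 2 of T-3Mb-Erg HG-PIN was, to 3 without control replicate 3 and to 5 without tumour replicate 2. In bulk captures, fewer epithelial cells and less RNA per epithelial cell cannot be told apart.

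Fibroblast markers were positive in 10 of 10 tested genes in tumours against T-3Mb-Erg HG-PIN, with a median of 1.61 and no call, although 6 were past an unadjusted p under 0.05, all higher, as were 3.67% of all genes. Their mean log2 level was 4.51 to 5.33 on the HG-PIN arrays of that genotype and 6.28, 5.32 and 7.72 on tumour replicates 1 to 3. Of 9 tested basal markers 7 were negative (median -0.35) and Krt15 fell by 3.00 (adjusted p = 0.0158 in limma, 0.0473 with the fixed replicate block). Endothelial genes had a median of 0.50 over 8 and smooth muscle genes -0.85 over 9, both with no call. Unadjusted p values under 0.05 marked 3 endothelial genes as higher and 4 smooth muscle genes as lower, against 3.67% and 3.98% of all genes. Of the 8 endothelial genes, only 1 averaged above the receptor level. Mean smooth muscle levels in T-3Mb-Erg HG-PIN were 6.73, 5.24 and 4.85 for replicates 1 to 3, while tumours read 4.66, 4.45 and 5.67. The groups overlapped, replicate 1 of T-3Mb-Erg HG-PIN was the highest, and the tumour of mouse 3 was higher than its HG-PIN. Macrophage genes had a median of -0.01 over 11, of which Cd14, a lipopolysaccharide co-receptor, fell by 1.73 (adjusted p = 0.0409; 0.0753 with the fixed replicate block). Of the 11 macrophage genes, 4 averaged above the receptor level. Neutrophil genes had a median of -0.57 over 6, of which Ltf, lactoferrin, which glandular epithelium also secretes, fell by 2.84 (adjusted p = 0.00400). Of 8 tested T and NK cell genes, only 2 averaged above the receptor level. The median of the 8 was -0.02, with no call and none past an unadjusted p under 0.05. None of these calls held in every leave-one-out fit: without tumour replicate 1 the adjusted p was 0.0675 for Ltf, 0.189 for Krt15 and 0.211 for Cd14. Krt15 also lost its call without replicate 1 (0.149) or 2 (0.0771) of T-3Mb-Erg HG-PIN, and Cd14 did so without either of those (0.284 and 0.245), tumour replicate 2 (0.0797) or control replicate 3 (0.0712). The part of these cell types in the gasdermin differences was not tested.

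Epithelia in which gasdermins are best known were checked too. Squamous genes had a median of 0.06 over 15 in tumours against T-3Mb-Erg HG-PIN, and Krt4, a keratin of stratified mucosa, fell by 2.16 (adjusted p = 0.0294 in limma). That call of Krt4 was lost without tumour replicate 1 (0.211), replicate 1 or 2 of T-3Mb-Erg HG-PIN (0.240 and 0.245) or control replicate 3 (0.0536). Sprr1a, a cornified envelope gene, stood at 8.80 ± 1.17 in HG-PIN and 5.70 ± 0.78 in tumours, and Krtdap, a keratinocyte gene, at 4.82 ± 0.22 and 7.41 ± 1.88 (SD, n = 3 each); neither passed (adjusted p = 0.146 and 0.233). Intestinal epithelial genes had 8 of 8 members negative, with a median of -0.38 and no call. Of the 8, 1 was lower at an unadjusted p under 0.05, as were 3.98% of all genes. Only 2 of the 8 had a mean above the receptor level. Between the HG-PIN genotypes no gene of the 16 lists was called in limma. Of 152 tested list genes, 14 were past an unadjusted p under 0.05 (12 higher and 2 lower, against 1.83% and 2.27% of all genes). Smooth muscle markers were positive in 9 of 9 tested genes (median 0.89) and fibroblast markers in 10 of 10 (median 0.79). The mean smooth muscle level was 6.73, 5.24 and 4.85 for T-3Mb-Erg HG-PIN. Control HG-PIN read 4.62, 4.58 and 4.88, so these groups overlapped. T and NK cell markers were negative in 6 of 8 (median -0.17). The luminal list had 14 of 15 members positive with a median of 0.39. Its mean level on control replicate 2 was 5.44, against 6.61 and 6.50 on the other controls and 6.37 to 6.93 on T-3Mb-Erg HG-PIN.

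**Figure D5:**
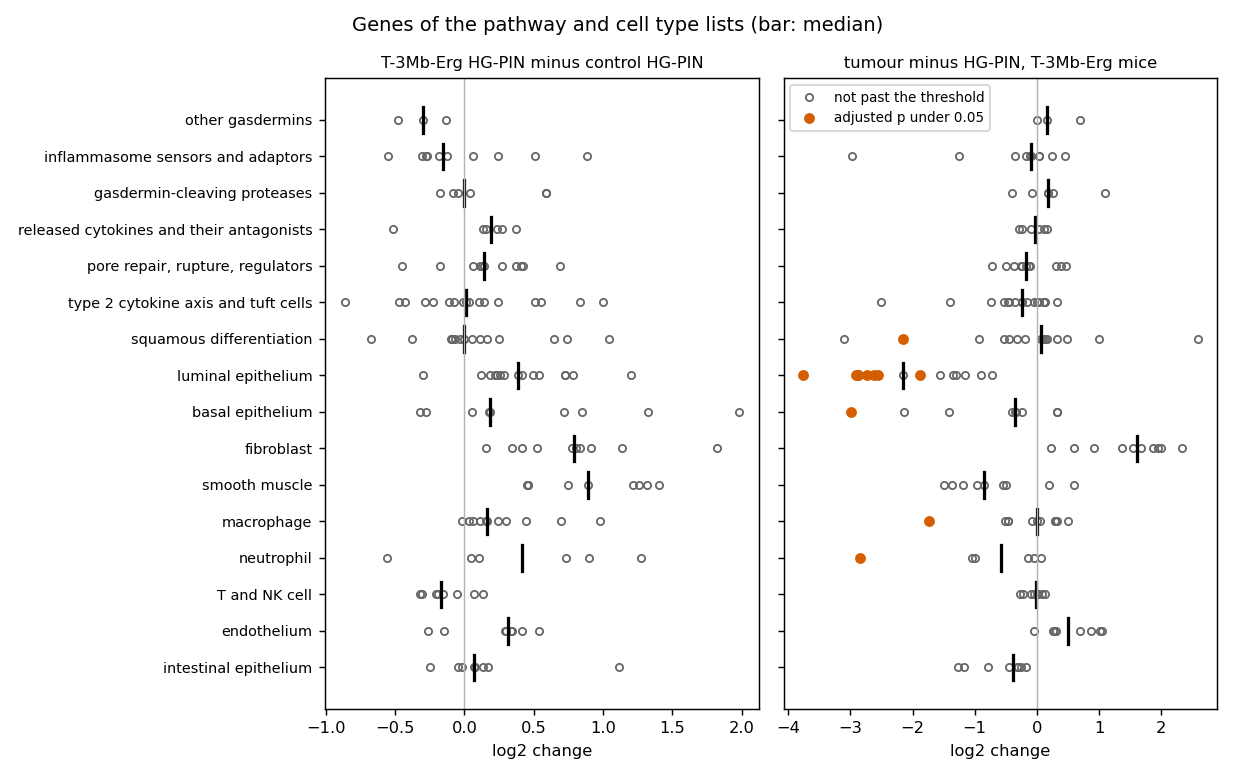
Log2 changes of the tested genes of the pathway and cell type lists between HG-PIN genotypes (left) and between tumour and HG-PIN of T-3Mb-Erg mice (right; points: genes, filled where the adjusted p is under 0.05; bars: medians). Calls appear only on the right, in the luminal, basal, squamous, macrophage and neutrophil lists, all of them falls.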

How the data were processed

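RNA from laser-captured, fixed prostate lesions was amplified (NuGEN Ovation V2) for Affymetrix Mouse Gene 2.0 ST arrays, per the labels' protocols. The deposited table holds linear intensity values for 41345 probe sets; how the authors corrected background, summarised probes and scaled arrays is not given in the sources used here. Probe sets were named from the platform annotation and updated by Entrez identifier with a RefSeq table of assembly GRCm38.p6 (23521 with 1 symbol, of which 23328 matched; 1814 with several; 16010 with none). Log2 values (floor 1) of the brightest probe set per symbol were used, without the lowest 25% by mean. The genes of the family and all lists were chosen with earlier results of these data known.

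Group means over 9 arrays were fitted with limma 3.58.1 (R 4.3.3), with the mouse as a random block (consensus correlation -0.01), a variance trend and Benjamini-Hochberg adjustment at 0.05; the fit was tested on simulated data. Mouse identifiers in the labels pair tumour and HG-PIN captures; same-mouse deviations from group means correlated at 0.17, 0.10 and -0.30. Calls of list genes and neighbours use all genes tested. Named genes were the family, all gasdermin relatives, up to 4 called genes of a list or else the 2 with the smallest p, the 3 nearest tested coding genes on each side, and the 10 most correlated with Gsdmc2; a few others (Pycard, Nlrp3, Stat6, Il4ra, Sprr1a and Krtdap in the tumour comparison) were named after their values were seen. Alternatives are given in the closing section. An allele that all groups share is not reported here.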

Additional observations from a re-analysis of the deposited data

How the results depend on the processing

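Gsdmc2 and Gsdmc3 were lower in tumours under all 21 alternatives against T-3Mb-Erg HG-PIN and all 20 against control HG-PIN. Many of these could not move the differences, which for Gsdmc2 stayed at -5.41 and -4.53. Changes of block, filter or trend, the mean of probe sets, and leaving out arrays of the group not compared keep the same 2 group means. Their agreement is therefore fixed by construction. Adding 16 before log2 moved Gsdmc2 to -3.36 and -2.72 respectively, and Gsdmc3 to -2.63 against T-3Mb-Erg HG-PIN. Leaving out single arrays gave Gsdmc2 -5.86 to -5.05 against T-3Mb-Erg HG-PIN and -5.81 to -3.84 against control HG-PIN, and Gsdmc3 -3.80 to -3.41 and -4.39 to -2.85. Gsdmd ran from -0.23 to 0.29 and -0.20 to 0.32. Between genotypes no gasdermin passed under 20 alternatives (adjusted p from 0.869); without single arrays Gsdmc2 ran from -0.40 to 1.56, Gsdmc3 from -0.73 to 0.81 and Gsdmd from -0.15 to 0.18. With mice as fixed terms (a replicate block) the tumour differences were the same, by construction, and no replicate block at all left 49 calls.

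Counts over all genes depend strongly on the setting. Tumours against T-3Mb-Erg HG-PIN gave 47 calls (11 higher, 36 lower), but 15 with the fixed replicate block, 84 with quantile normalization (30 higher, 54 lower), 18 with median centring (6 higher, 12 lower) or a pseudocount of 16 (7 higher, 11 lower), 180 with the 95th percentile as a term, 405 with array weights (226 higher, 179 lower), and 0 to 110 without single arrays. List genes called were 12, but 4 with the fixed block, 6 with median centring or the pseudocount, 19 with the percentile term, 26 with weights, and 0 to 17 without single arrays. Tumours against control HG-PIN gave 30 calls (18 higher, 12 lower), but 88 with quantile normalization, 12 with median centring, 171 with the percentile term (80 higher, 91 lower), 7 with the pseudocount or on 6 arrays, 938 with weights, and 0 to 261 without single arrays. List genes called there were 4, but 11, 18 and 36 with quantile normalization, the percentile term and weights, 0 with the pseudocount or on 6 arrays, and 0 to 18 without single arrays. Between genotypes 0 became 6 with the percentile term, 9 with weights, 4 on 6 arrays, and 0 to 6 without single arrays. The causes were not tested. No neighbour of a gasdermin gene was called under any alternative.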
